A study of Mus musculus with 4 samples.

Results

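Red cells of the graft were taken as the cells in which hemoglobin transcripts made up most of the RNA. They were chosen by their hemoglobin share: among cells with over 200 detected genes and under 20% of UMIs (unique molecular identifiers, 1 per captured transcript) from mitochondrial mt- genes, those in which *Hba-a1*, *Hba-a2*, *Hbb-bs* and *Hbb-bt* together gave 50% or more of the UMIs of the remaining genes. This left 432 hemoglobin-rich cells of 44626 kept cells and of 53824 deposited cells. The hemoglobin values below are therefore a description of what was chosen, whereas the other genes of red cells were not part of this rule. The lists of those genes were, however, chosen with earlier results of these data known.

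The cells came from hearts of young adult male mice grafted into the abdomen of C57BL/6J recipients and collected on day 5. The 2 allogeneic grafts were hearts of BALB/c donors and the 2 syngeneic grafts were hearts of C57BL/6J donors, and no drug or gene modification is stated for either group. The grafts were perfused by the recipient's circulation, and the dissociation of the tissue included a step that lyses red blood cells. The deposited matrix pools the 4 grafts as libraries 1 to 4, no text pairs a library with a graft, and so the data are 1 pooled sample in which the allogeneic and syngeneic groups were not compared. No test was run, since a library stands for no known group and cells chosen by their own counts were set against the rest of the same library.

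Red cells arise in the bone marrow, and in mice also in the spleen, from precursors that fill with hemoglobin, a tetramer of alpha and beta globin chains that each hold a heme. A young red cell, the reticulocyte, has lost its nucleus but keeps RNA for some days while it clears its mitochondria and ribosomes, and the mature red cell holds very little RNA. Transcripts read from a red cell are therefore those it kept from its precursor, with the hemoglobin transcripts most abundant by far.

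The alpha and beta globin genes stand in separate clusters. On GRCm38, as annotated in GENCODE M21, *Hba-a1* lies at chr11:32283511-32284465 and *Hba-a2* at chr11:32296489-32297298, both on the plus strand, while *Hbb-bt* lies at chr7:103812524-103813996 and *Hbb-bs* at chr7:103826534-103828096, both on the minus strand. These are the beta globin genes of the C57BL/6 haplotype. BALB/c mice carry another one, and reads of all grafts were counted on the same reference. *Alas2*, which encodes the first enzyme of heme synthesis in red cells, lies on the plus strand of chrX:150547375-150570638. The promoters of 4 of these genes are shown because their transcripts define the cells or, for *Alas2*, stood out most among the genes the choice did not use. Each runs 5′ to 3′ from 250 bases before to 50 bases after the RefSeq start on GRCm38.p6, and capitals mark matches on either strand to 5 motifs, namely AGATAA (the core bound by GATA factors), the CCAAT box, CACACCC (bound by Krüppel-like factors), and the AT-rich TATAAA or its variant CATAAA.
Hbb-bs, chr7:103827879-103828178, minus strand: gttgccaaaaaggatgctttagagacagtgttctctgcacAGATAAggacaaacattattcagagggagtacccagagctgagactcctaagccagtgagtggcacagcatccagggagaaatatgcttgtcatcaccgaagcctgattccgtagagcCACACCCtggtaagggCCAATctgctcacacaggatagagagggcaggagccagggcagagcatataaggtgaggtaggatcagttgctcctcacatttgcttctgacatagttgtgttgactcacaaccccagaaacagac
Hbb-bt, chr7:103813874-103814173, minus strand: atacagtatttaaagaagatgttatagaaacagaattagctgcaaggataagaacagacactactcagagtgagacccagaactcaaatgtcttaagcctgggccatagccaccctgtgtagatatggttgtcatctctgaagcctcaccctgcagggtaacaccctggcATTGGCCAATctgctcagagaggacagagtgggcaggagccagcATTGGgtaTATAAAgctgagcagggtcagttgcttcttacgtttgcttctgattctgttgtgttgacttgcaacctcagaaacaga
Hba-a1, chr11:32283422-32283721, plus strand: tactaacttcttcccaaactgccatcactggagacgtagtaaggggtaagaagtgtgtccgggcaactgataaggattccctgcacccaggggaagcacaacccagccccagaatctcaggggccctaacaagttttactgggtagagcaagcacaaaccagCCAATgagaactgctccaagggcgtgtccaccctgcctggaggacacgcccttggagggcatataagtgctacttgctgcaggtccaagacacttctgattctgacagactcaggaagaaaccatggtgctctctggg
Alas2, chrX:150547167-150547466, plus strand: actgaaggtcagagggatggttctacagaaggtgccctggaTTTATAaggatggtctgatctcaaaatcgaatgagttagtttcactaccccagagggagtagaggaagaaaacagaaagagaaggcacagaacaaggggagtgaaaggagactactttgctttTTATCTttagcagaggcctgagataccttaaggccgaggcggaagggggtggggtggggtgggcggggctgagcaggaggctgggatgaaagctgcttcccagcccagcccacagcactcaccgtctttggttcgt

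The *Hbb-bs* promoter held AGATAA 210, CACACCC 92 and CCAAT 76 bases before the start. *Hbb-bt* held CCAAT 75 bases before the start, the same motif on the other strand at 80 and 36 bases, and TATAAA at 28 bases. *Hba-a1* held CCAAT at 88 bases, and the *Hba-a2* promoter, which shares an unbroken run of 297 of its 300 bases with that of *Hba-a1*, held it at 91 bases. *Alas2* held AGATAA at 86 bases and TATAAA at 209 bases, both on the other strand. Of 32851 promoters of the same length, 37.4% held CCAAT on either strand, 13.6% held TATAAA, 11.9% held CATAAA, 11.2% held AGATAA and 7.95% held CACACCC. These matches are descriptions of sequence and no binding was measured.

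Hemoglobin-rich cells were rare in each library and unevenly spread. They were 255 of 10322 kept cells in library 1 (2.47%, exact Clopper-Pearson 95% interval 2.18 to 2.79). Library 2 held 87 of 13154 (0.661%, 0.530 to 0.815), library 3 held 39 of 9850 (0.396%, 0.282 to 0.541) and library 4 held 51 of 11300 (0.451%, 0.336 to 0.593). Library 1 thus gave most of them, and the intervals of libraries 2 to 4 overlapped those of at least 1 other library among them. Over the whole matrix the share was 0.968% (0.879 to 1.06), and without library 1 it was 0.516%. These shares depend on the filters, and the parts of the lysis step and of the blood in the graft were not tested. All intervals cover counting error only. Library totals were 96020294, 115162601, 138892048 and 166079145 UMIs.

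The hemoglobin share ran from 50.1% to 96.2% of UMIs outside mt- genes, with a median of 89.5%. It was 90% or more in 203 cells, 70 to 90% in 156 and 50 to 70% in 73. The library medians were 91.8%, 85.0%, 89.9% and 82.2% in libraries 1 to 4. Cells at 90% or more were 159 of the 255 in library 1 but 3 of the 51 in library 4. The cells nearest the limit lay at 50.11%, 50.18% and 50.46% inside it and at 49.77%, 49.71% and 49.68% outside it. Below the limit, 261 other kept cells had a share of 5 to 50% and 43788 had under 1%.

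**Figure D1:**
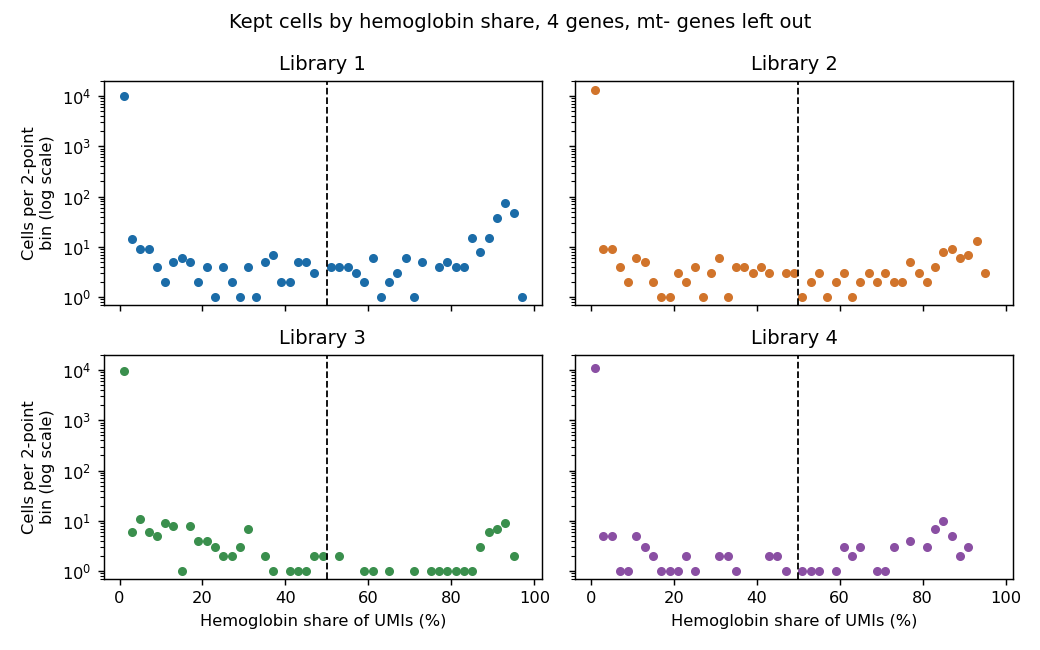
Kept cells of each library by the share of UMIs outside mt- genes that came from the 4 hemoglobin genes (x axis, %, bins of 2 percentage points; y axis, number of cells, log scale; bins without cells are not drawn; the dashed line is the limit of 50%). Most of the 44626 cells sit at the far left with under 1%, few lie between, and library 1 rises to its largest number of hemoglobin-rich cells at 90% or more.

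Outside hemoglobin most of these cells carried little RNA, a measure that also stands in the denominator of the hemoglobin share. Their median was 6396.5 UMIs in all but 516 UMIs outside hemoglobin and mt- genes, against 6742.5 in the other kept cells, and 335 detected genes against 2525. The median number of UMIs outside hemoglobin was 584, 447, 464 and 560 in libraries 1 to 4, so the libraries resembled each other in this measure more than in hemoglobin UMIs, whose medians were 6717, 2708, 3589 and 2848. The 35 cells of library 1 at 50 to 70% hemoglobin differed, with a median of 4573 against 5532 in the other kept cells of that library. Cells at 50 to 70% were 13.7%, 23.0%, 12.8% and 25.5% of the hemoglobin-rich cells of libraries 1 to 4 and gave 54.6%, 31.3%, 39.3% and 26.6% of their UMIs outside hemoglobin. Summed levels below weigh these cells accordingly. The endothelial list in libraries 1 and 3, *Fabp4* and *Cdh5* are given with and without them. Mitochondrial UMIs were a median of 2.63%, 2.16%, 5.02% and 3.45% of the total, lower in each library than in its other cells (7.12%, 4.65%, 7.18% and 4.06%). The hemoglobin transcripts themselves dilute this share, so its order does not show fewer mt- UMIs relative to the other RNA. Median totals were 7799, 3228, 4397 and 3656 UMIs in libraries 1 to 4, many times the medians outside hemoglobin given above. In the other cells the totals of 5997, 5034, 9656 and 12726 lay close to the 5532, 4784, 8819 and 12200 outside hemoglobin and mt- genes. Taken at these medians, mt- UMIs were higher relative to the other RNA in the hemoglobin-rich cells of each library. The ratio was not computed per cell. Of the 432 cells, 16 were marked as likely doublets, all of them in library 1, and were retained. Libraries shared 308 barcodes. Of the hemoglobin-rich cells 6 had a barcode that also occurred in another library, and in 0 of these was the cell of the other library hemoglobin-rich.

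All 4 hemoglobin genes were detected in each of the 432 cells. Of their hemoglobin UMIs, *Hbb-bs* gave 52.2%, *Hba-a1* 21.0%, *Hba-a2* 15.7% and *Hbb-bt* 11.2%. The last 300 bases of the *Hba-a1* and *Hba-a2* transcripts, the end that this method reads, were 94.3% identical (283 bases), so the split between these copies is uncertain. Those of *Hbb-bs* and *Hbb-bt* were 87.0% identical (261 bases). The ratio of alpha to beta UMIs was 0.561, 0.683, 0.608 and 0.551 in libraries 1 to 4 (0.579 over all, SD over libraries 0.0602), and library 2 was the highest. Among single cells it ran from 0.317 to 2.36 with a median of 0.582.

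The balance between the 2 beta genes varied most. *Hbb-bt* gave 11.9%, 7.95%, 10.9% and 9.81% of hemoglobin UMIs in libraries 1 to 4. Within single cells it gave 0.227 to 28.8% of the beta globin UMIs, with medians of 18.4%, 9.45%, 16.9% and 14.1%. In 6 cells it gave under 1%, and in 109 cells 20% or more, although both beta genes were detected throughout. Cells with a low *Hbb-bt* share also had fewer hemoglobin UMIs: Spearman's rho between these measures was 0.33 over the 255 cells of library 1, 0.53 over the 87 of library 2, 0.56 over the 39 of library 3 and 0.57 over the 51 of library 4. These coefficients are descriptions over cells that share a library, and both measures rest on *Hbb-bt* UMIs.

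**Figure D2:**
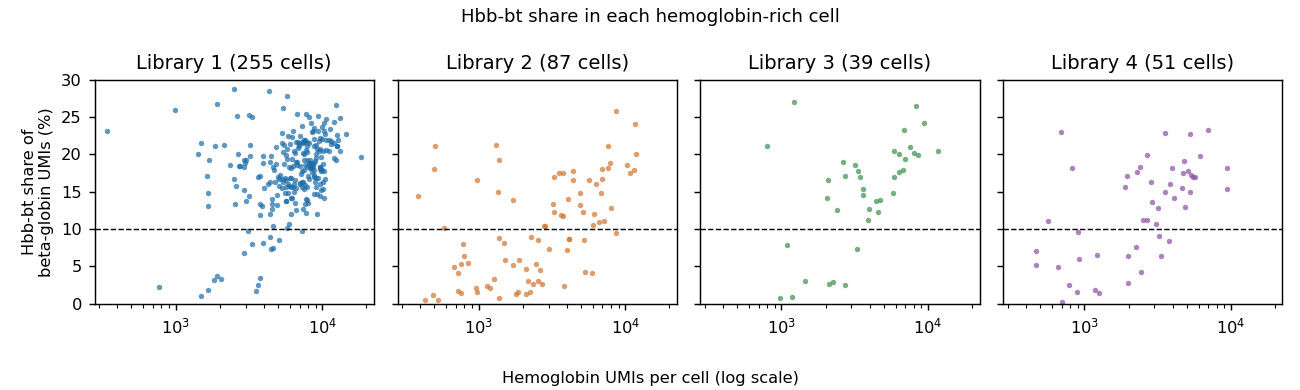
Each point is a hemoglobin-rich cell, with its hemoglobin UMIs (x axis, log scale) and the share of its beta globin UMIs that came from Hbb-bt (y axis, %), per library, and the dashed line marks 10%. Cells below the line are 18 of 255, 44 of 87, 8 of 39 and 18 of 51 in libraries 1 to 4 and lie mostly among the cells with fewer hemoglobin UMIs.

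A limit of 10% of beta UMIs, chosen after the values were seen, describes this range. Under it lay 18 of 255, 44 of 87, 8 of 39 and 18 of 51 cells in libraries 1 to 4, or 7.06%, 50.6%, 20.5% and 35.3%, and 34 cells of the 432 lay between 8 and 12%. The cells under the limit had a median of 3420, 1833, 1771 and 1200 hemoglobin UMIs, against 7068, 4891, 4544 and 3831 in the cells above it. Their median of UMIs outside hemoglobin was 327, 420.0, 342 and 462 against 598, 513, 508 and 654. Their median mt- share, which hemoglobin UMIs dilute, was 3.14%, 2.35%, 7.66% and 5.13% against 2.57%, 1.53%, 4.88% and 2.49%. They also differed in genes the choice did not use. Summed over the 4 lists of red cell genes described below, the cells under the limit had 2.67%, 2.82%, 2.58% and 3.16% of their UMIs outside hemoglobin, and the cells above it 10.1%, 6.51%, 11.9% and 10.1%, higher in each of the 4 libraries.

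*Gpx1* and *Bpgm* were higher above the limit in each library, with intervals that did not overlap. *Gpx1*, a glutathione peroxidase that removes peroxides, stood at 240.4, 1065, 457 and 1492 CPM (UMIs per 1000000 UMIs outside hemoglobin and mt- genes) in the cells under the limit and at 6966, 4082, 9169 and 10755 in those above it. *Bpgm*, which makes the bisphosphoglycerate that lowers the oxygen affinity of hemoglobin, stood at 1202, 1297, 457 and 1951 against 10510, 6224, 11822 and 9356. *Slc4a1*, the anion exchanger of the red cell membrane, stood at 888, 289.5, 652 and 1252 CPM above the limit. Under it, 3 UMIs in library 2 and 1 in library 4 gave 139 and 115 CPM, and counts of 0 in libraries 1 and 3 allow up to 180.3 and 686 CPM. For this gene no difference was thus detectable at this depth in library 3, and in library 2 the exact Poisson intervals overlapped (28.7 to 406 and 139 to 532 CPM). Among the cells at 70% hemoglobin or more those of library 4 overlapped as well (4.95 to 1089 and 916 to 1965 CPM), which left library 1 as the one with separate intervals. *Alas2* differed less, with 6792, 6346, 10283 and 7460 CPM under the limit and 13415, 11928, 15266 and 11824 above it, and its intervals overlapped in library 3 (7501 to 13760 and 13658 to 17011 CPM). UMIs of other cell types were 3.04%, 5.50%, 3.20% and 1.10% under the limit and 2.85%, 4.67%, 2.58% and 1.43% above it, higher below the limit in 3 libraries and lower in library 4. The share taken up by RNA of other cells was not separated from the cell's own RNA, and its part in these differences was not tested. Among the cells with a hemoglobin share of 70% or more the red cell lists still stood at 7.28%, 3.59%, 3.05% and 4.42% under the limit and 17.9%, 8.65%, 17.8% and 11.8% above it. Among these cells *Alas2* stood at 20529, 9063, 13127 and 11144 CPM under the limit and 24237, 16157, 23114 and 14104 above it. Its intervals then overlapped in library 1 (16508 to 25234 and 23425 to 25069) and in library 4 (8440 to 14438 and 12550 to 15796), where no difference was detectable at this depth.

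To describe what else the hemoglobin-rich cells held, levels were computed as CPM, here UMIs of a gene per 1000000 UMIs outside hemoglobin and mt- genes, and set against the other kept cells of the same library. Log2 ratios, with 10 CPM added to both levels, were averaged over the 3 libraries with at least 50 hemoglobin-rich cells (libraries 1, 2 and 4, 393 cells), and a gene was called when the mean was at least 2-fold with the same sign in each of them. The values ± are SDs over these 3 libraries. Of 3113 genes with at least 20 UMIs in the hemoglobin-rich cells of those libraries, 160 were called higher (5.14%) and 204 lower (6.55%), with a median log2 ratio of −0.23 over all of them. Without library 1, which held most of the cells, 93 were called higher and 25 lower of 758 tested. In sparse cells a gene that is rare elsewhere passes this minimum by being high here, so that counts of called genes describe the genes and are not independent support. The balance of higher and lower calls turned under several of the alternatives, for example to 123 higher and 49 lower with 50 CPM added and to 300 and 242 with libraries pooled, so it is not a stable property of these cells. Where a gene is said to lead a list, it had the most UMIs of that list, each counted once per captured transcript. This holds for the libraries together, in which library 1 weighs most, and not always in each library.

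Most genes of red cells that could be tested were called higher. The lists of heme synthesis and iron import, red cell membrane, red cell redox and metabolism, and reticulocyte clearance held 62 genes. Of these 39 had enough UMIs, of which 35 were called higher and 0 lower with a median log2 ratio of 3.40. Among all genes tested 5.14% were called higher and 6.55% lower, and the limit of this minimum given above applies here too. The remaining 23 genes had too few UMIs, with ratios on both sides of 0, such as −1.11 for *Slc25a38* and 1.65 for *Rhd*. Summed over all 62 genes with no minimum, the lists took 9.69%, 5.09%, 10.3% and 8.43% of UMIs outside hemoglobin in libraries 1 to 4, against 0.565%, 0.495%, 0.550% and 0.594% in the other cells (mean log2 ratio 3.76 ± 0.37). Library 2 was the lowest of the 4 and still stood well above its other cells. In single cells the share ran from 0.211 to 35.5% with a median of 10.8%, so that some single cells carried very few of these UMIs. The lists also hold genes that most cells express, such as *Ubb*, with a UMI in 97.1% of the other kept cells. *Alas2*, which is particular to red cells, had a UMI in 94.7% of the hemoglobin-rich cells.

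**Figure D3:**
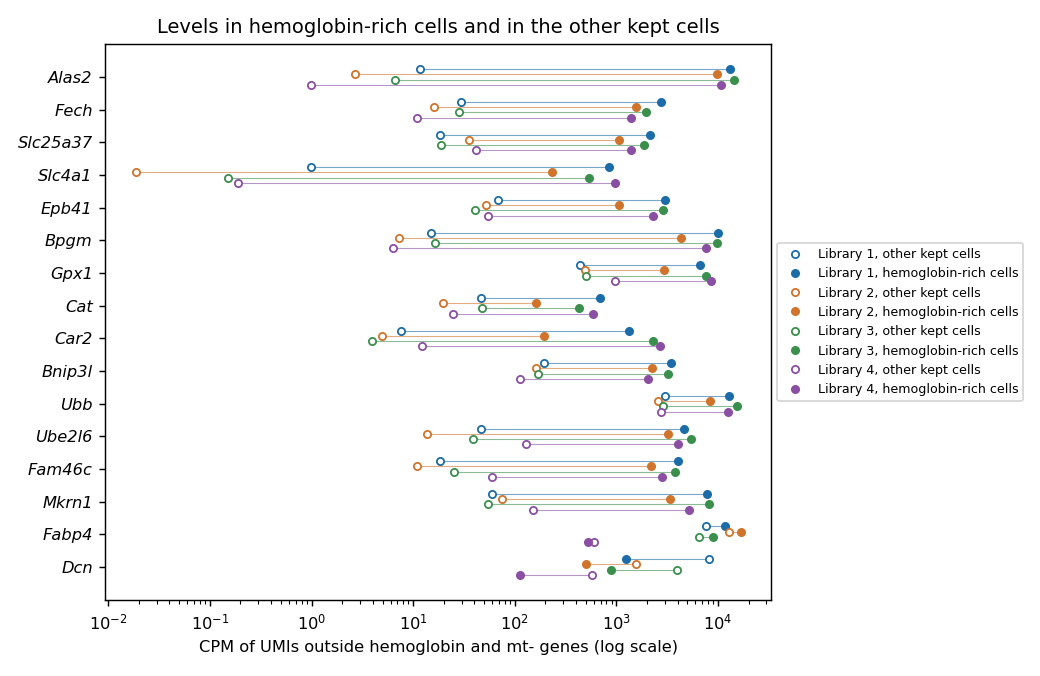
Levels of 16 genes (x axis, CPM of UMIs outside hemoglobin and mt- genes, log scale) in the hemoglobin-rich cells (filled points) and in the other kept cells (open points) of libraries 1 to 4, shown by colour and joined by a line within each library. Alas2, Slc4a1 and Bpgm are separated by the widest gaps, Fabp4 of endothelial cells lies close together in both, and Dcn of fibroblasts is lower in the hemoglobin-rich cells.

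In the list of heme synthesis, 6 of the 7 genes tested of 15 were called higher. *Alas2* stood at 13066, 9781, 14423 and 10763 CPM in libraries 1 to 4, against 11.6, 2.67, 6.66 and 0.989 in the other cells (mean log2 ratio 9.59 ± 0.35). Each hemoglobin-rich level lay far above each of the others. Against the 94.7% of hemoglobin-rich cells with a UMI of it, it was detected in 0.533% of cells with *Cdh5* and *Pecam1*, an endothelial pair, and 0.202% of cells with *C1qa* and *Csf1r*, a macrophage pair, at median depths of 516, 6590 and 15093 UMIs outside hemoglobin. *Fech*, which inserts iron into the ring to complete heme, had a mean log2 ratio of 6.04 ± 0.10. *Slc25a37*, which brings iron into mitochondria, had 5.19 ± 0.93, and *Glrx5*, of iron-sulfur cluster assembly, 2.51 ± 1.26. *Urod*, an enzyme of an intermediate step, had 2.08 ± 0.66 and *Fam210b* 3.05 ± 0.99. *Alad*, *Uros*, *Cpox*, *Ppox*, the transporters *Slc25a38*, *Abcb10* and *Abcb6*, and the transferrin receptor *Tfrc* had at most 15 UMIs each and were not tested.

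Membrane and skeleton genes of the red cell were called in 8 of 9 genes tested of 19. *Slc4a1* stood at 842, 232, 541 and 976 CPM in libraries 1 to 4, against 0.990, 0.0186, 0.152 and 0.189 in the other cells (5.82 ± 1.08). Library 2 was the lowest of the hemoglobin-rich levels and the groups did not overlap. *Epb41*, which ties the skeleton to the membrane, had 4.86 ± 0.64, and the spectrin *Sptb* 2.38 ± 0.63. *Epb42*, *Tmod1* and *Tspan33* were also called higher (2.70, 2.54 and 3.80). *Ank1*, the ankyrin that anchors spectrin, was not called (1.83 ± 1.71), with 0 UMIs in library 2. *Rhag*, *Ermap* and *Icam4* had 0 UMIs in the 432 cells, which allows up to 6.91 CPM.

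Among genes of red cell metabolism and protection from oxidants, 7 of 8 tested of 11 were called higher. *Bpgm* stood at 10020, 4329, 9899 and 7557 CPM against 14.9, 7.29, 16.3 and 6.35 in the other cells (8.49 ± 0.46). The groups did not overlap, with library 2 again lowest. *Car2*, a carbonic anhydrase that turns carbon dioxide into bicarbonate, varied most, at 1319, 196, 2281 and 2705 CPM against 7.57, 4.91, 3.90 and 12.3 (5.65 ± 1.65). The peroxide-removing enzymes *Cat*, *Gpx1* and *Prdx2* had 3.42 ± 0.82, 3.19 ± 0.67 and 3.17 ± 0.19, and *Blvrb*, which reduces biliverdin, 2.49 ± 0.76. *Sod1*, the cytosolic superoxide dismutase, was not called (0.11 ± 0.46). *Car1* and *Pklr* had 0 UMIs.

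The list of reticulocyte clearance, which holds genes of mitochondrial removal, autophagy and protein breakdown, had 14 of 15 tested genes of 17 called higher. *Bnip3l*, the receptor that marks mitochondria for removal in reticulocytes, stood at 3461, 2263, 3209 and 2063 CPM against 194, 162, 171 and 113 (3.96 ± 0.20). *Ubb*, which encodes ubiquitin, stood at 12848, 8427, 15505 and 12632 against 3039, 2565, 2897 and 2768 (1.99 ± 0.25). The groups did not overlap for either gene. Genes that attach ubiquitin to proteins included *Ube2l6* (6.11 ± 1.12), *Mkrn1* (5.71 ± 0.97), *Trim10* (5.11 ± 0.65), *Ube2o* (4.76 ± 1.02) and *Ube2h* (2.67 ± 0.32). The autophagy genes *Gabarapl2* and *Map1lc3b* had 3.40 ± 0.51 and 2.13 ± 0.74. *Fam46c*, a poly(A) polymerase (6.41 ± 0.94), and *Isg20*, an exonuclease induced by interferon (4.82 ± 0.43), stand in this list but act on RNA. *Xpo7* was not called (0.31 ± 1.74), and *Ulk1* and *Trim58* were not tested.

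The 15 genes with the highest ratios included, in falling order, *Alas2*, *Bpgm*, *Fam213a*, *Fam46c*, *Ube2l6*, *Fech*, *Slc4a1*, *Mkrn1*, *Car2*, *Fam220a*, *Slc25a37*, *Trim10* and *Epb41*. Of these, *Fam213a*, a redox protein related to the peroxiredoxins (6.44 ± 0.33), and *Fam220a* (5.50 ± 0.46) were in no list. All other genes named among the 15 belonged to the 4 red cell lists.

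Genes of earlier erythroid stages had few UMIs. Of 11 genes of erythroid transcription factors and precursors, *Lmo2*, a partner of GATA factors, passed the minimum of UMIs and was called higher, at 282, 143, 425 and 279 CPM against 73.6, 30.1, 72.9 and 62.0 (1.91 ± 0.10). *Klf1* and *Gfi1b*, regulators of erythroid precursors, had 0 UMIs in the 432 cells, which allows up to 6.91 CPM, and *Gata1* had 1. At a median of 516 UMIs outside hemoglobin per cell, genes of low level can be missed in cells that express them. The division genes *Mki67* and *Top2a* had 10 and 4 UMIs, and *Kit*, the receptor of early precursors, had 5. The embryonic globins *Hbb-y*, *Hbb-bh1*, *Hbb-bh2* and *Hba-x* had 0 UMIs. The minor globins *Hbq1a* and *Hbq1b* had 50 and 41 UMIs and were called higher (3.85 ± 0.40 and 3.35 ± 0.30), and they are close copies whose split is uncertain. Of 10 platelet genes 2 were tested and 0 called. *Gng11*, which endothelial cells also express, had the most UMIs of them, and *Tubb1* and *Gp1bb* had 0 UMIs.

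Transcripts of other graft cells were present in the same barcodes. The 9 lists of other cell types (62 genes) took 2.86%, 4.99%, 2.69% and 1.35% of UMIs outside hemoglobin in libraries 1 to 4, against 4.66%, 5.13%, 3.95% and 1.45% in the other cells (mean log2 ratio −0.28 ± 0.37). Of 41 genes tested, 3 were called higher and 10 lower, against the 5.14% and 6.55% of all genes. Endothelial genes took 1.72%, 2.62%, 1.44% and 0.0892% against 1.14%, 1.87%, 1.07% and 0.104%, with 10 tested and 0 called. In libraries 1 and 3 the direction turned with the hemoglobin share: the cells at 50 to 70% had 2.59% and 2.80%, and those at 70% or more 0.677% and 0.561%, below the other cells. *Fabp4*, a fatty acid carrier of capillary endothelium, led the list, at 11861, 16676, 8932 and 529.8 CPM against 7687, 12875, 6578 and 603. In the cells at 70% or more it stood at 4366, 16615, 3376 and 456, and thus above the other cells in library 2 alone. *Cdh5*, which defines endothelial junctions, was at 658, 552, 812 and 0 CPM against 468, 539, 559.8 and 55.1. In the cells at 70% or more it stood at 286, 544, 318 and 0, which is below the other cells in libraries 1 and 3. The count of 0 over the hemoglobin-rich cells of library 4 allows up to 83.7 CPM, so no difference was detectable there. The levels of endothelial genes thus moved with those of the library, lowest in library 4.

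Other lists also differed by library, not always in the order of the other cells. Granulocyte genes took 0.0174%, 1.94%, 0.0232% and 0.494% in the hemoglobin-rich cells and 0.0977%, 2.55%, 0.0587% and 0.0897% in the others, led by the alarmins *S100a8* and *S100a9*. They were highest in library 2 in both groups, whereas the hemoglobin-rich cells stood below the others in library 1 and above them in library 4, with 1.31% in the 13 cells at 50 to 70% and 0.198% in the rest. Macrophage genes took 0.0509%, 0.0463%, 0.0967% and 0.482% against 0.144%, 0.0885%, 0.305% and 0.743%, highest in library 4, and the complement genes *C1qb* and *C1qc* and the protease *Ctsc* were called lower. Fibroblast genes took 0.425%, 0.114%, 0.739% and 0.148% against 2.79%, 0.416%, 2.22% and 0.362%, and 7 of 7 tested genes of 8 were called lower. *Dcn* led them over all libraries, but *Col3a1* in libraries 3 and 4. Cardiomyocyte genes took 0.545%, 0.109%, 0.217% and 0.0279% against 0.272%, 0.0310%, 0.0491% and 0.00864%. *Myl2* led them over all libraries, but *Actc1* in library 3 and *Tnnt2* in library 4. In library 1 the direction turned with the hemoglobin share: the cells at 50 to 70% had 0.159%, below the other cells, and those at 70% or more 1.01%. The troponins *Tnnt2*, *Tnni3* and *Tnnc1* were called higher (1.14 ± 0.71, 1.40 ± 0.66 and 1.67 ± 0.74). These calls rest on few UMIs in libraries 2 and 4. There the cells at 50 to 70% had 1 and 1 UMIs of *Tnnt2*, 2 and 1 of *Tnni3*, and 3 and 2 of *Tnnc1*. Those at 70% or more had 3 and 4, 8 and 0, and 2 and 2. The B cell genes *Cd79b*, *Ly6d* and *Ms4a1* and the 4 Schwann genes had 0 UMIs.

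Across the 41 genes of other cell types with at least 20 UMIs, the log levels of the hemoglobin-rich cells had Pearson's r of 0.71, 0.88, 0.72 and 0.84 with the other cells of their own library. With the other cells of another library r ran from −0.12 to 0.45 for the cells of libraries 1, 2 and 4, whereas those of library 3 had 0.78 with library 1, more than with their own. These values are across genes, which are not independent replicates, and describe only how alike the levels were. The source of this RNA was not tested. The 10 genes with the lowest ratios included *Pmepa1*, *Cygb*, *Mmp2*, *Serping1*, *Gsn*, *Lcn2*, *Bgn*, *Dcn* and *Cxcl5*, with mean log2 ratios from −2.60 to −2.16. *Cygb*, *Mmp2*, *Lcn2* and *Cxcl5* had 0 UMIs in library 4, which allows up to 83.7 CPM. The other cells there stood at 30.6, 26.1, 66.9 and 64.7 CPM, so no difference was detectable for these genes in that library. Library 2 held 50 of the 51 UMIs of *Lcn2* and 38 of the 39 of *Cxcl5*. *Dcn*, *Bgn* and *Gsn* stood in the fibroblast list. *Dcn*, a matrix proteoglycan, stood at 1247, 499, 889 and 112 CPM against 8211, 1549, 3939 and 570.3.

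The lists separated as the hemoglobin share grew. The red cell lists took 0.552% of UMIs outside hemoglobin in kept cells with under 1% hemoglobin, 0.748% at 5 to 20%, 1.20% at 20 to 50%, 2.98% at 50 to 70%, 8.33% at 70 to 90% and 21.5% at 90% or more. *Alas2* went from 0.272 to 29668 CPM between the lowest and the highest of these classes. These values pool the libraries. The lists of other cell types lay between 2.20% and 3.57% in the pooled classes, with 3.09% in the 73 cells at 50 to 70%. In those cells the red cell lists took 3.15%, 1.45%, 2.51% and 3.11% in libraries 1 to 4 and the other lists 2.94%, 5.00%, 3.40% and 2.03%, so the order differed by library. In library 2 the other lists still took more at 70 to 90% (5.23% against 4.77%). The median number of genes over all libraries was 1122 at 50 to 70%, 363 at 70 to 90% and 295 at 90% or more, but this fall was not seen in each library. The 3 medians were 1938, 417 and 275 in library 1 and 1180, 270.5 and 320.5 in library 3, whereas the 50 to 70% class was the lowest in library 2 (315, 329 and 348) and in library 4 (357, 430.0 and 406). Libraries are unequally represented in these classes, with library 1 giving 159 of the 203 cells at 90% or more. The red cell lists outweighed the other lists in 323 of the 432 cells, namely in 223, 28, 33 and 39 cells of libraries 1 to 4.

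**Figure D4:**
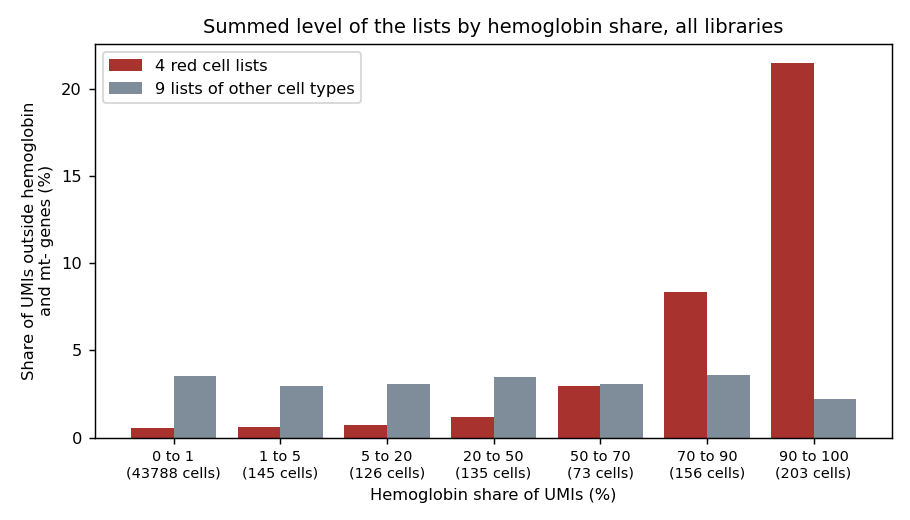
Summed level of the 4 red cell lists (red) and of the 9 lists of other cell types (grey) as a share of UMIs outside hemoglobin and mt- genes (y axis, %), in kept cells grouped by their hemoglobin share (x axis, %, with the number of cells), all libraries pooled and without replicates. The red bars grow from 0.552% to 21.5% and pass the grey bars above a hemoglobin share of 70%, while the grey bars lie between 2.20% and 3.57%.

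Within each library, cells with more hemoglobin UMIs had more UMIs of the red cell lists, with Spearman's rho of 0.83, 0.78, 0.81 and 0.84 over the cells of libraries 1 to 4. The same coefficient with the lists of other cell types was 0.11, 0.11, −0.01 and 0.21. These describe cells of the same libraries, which also differ in captured depth. Ribosomal protein genes took 12.4%, 13.8%, 12.4% and 14.5% in the hemoglobin-rich cells and 14.7%, 15.6%, 15.5% and 14.3% in the others, and of 82 tested 0 were called.

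Hemoglobin UMIs also occurred outside the chosen cells. Of the other kept cells 87.5%, 73.0%, 44.5% and 29.9% had at least 1 hemoglobin UMI in libraries 1 to 4, although these made up 0.459%, 0.142%, 0.255% and 0.0495% of their UMIs. Among cells with *Cdh5* and *Pecam1* the share with a hemoglobin UMI was 89.5%, 75.7%, 48.2% and 36.1%, and among those with *C1qa* and *Csf1r* 89.0%, 83.1%, 47.3% and 32.1%, at medians of 7099 and 15755 UMIs over all libraries. The share thus moved with the library in both. Neither pair of genes marks red cells, and the source of these UMIs was not tested. The hemoglobin-rich cells held 82.2%, 67.5%, 36.2% and 67.9% of the hemoglobin UMIs of kept cells, or 72.4% over all libraries.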

How the data were processed

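Droplet RNA libraries of 4 grafts were made with the 10x 3′ chemistry, version 3 (Single Cell 3′ kit). The authors deposited the counts of UMIs per gene and cell, without normalization, as 1 matrix of 53824 cells and 30905 genes made with Cell Ranger 3.0.0 on mm10 with an Ensembl annotation. Barcode suffixes 1 to 4 give the libraries, and no source pairs them with grafts. Cells with over 200 genes and under 20% of UMIs from the 13 mt- genes were kept. Barcodes that may hold more than 1 cell were marked in each library from simulated doublets, with 50 neighbours, 10 components and 2000 genes, taking the top 5% of cells, and were left in. A caller that takes a fixed share marks that share by construction.

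Hemoglobin genes and mt- genes were left out of levels, which are CPM of the remaining UMIs. Levels were compared within a library, with 10 CPM added, a minimum of 20 UMIs and 50 hemoglobin-rich cells in a library, and a 2-fold rule in place of a test, because the libraries stand for no known group and the cells were chosen from them by their own counts. Intervals are exact Poisson for summed UMIs and exact Clopper-Pearson for shares, at 95%, and cover counting error only. A count of 0 was given the limit of 3 counts. Shares of cells were also computed with each cell thinned to 200 UMIs. The genes named are those of 17 lists (157 names, 155 found, with *Ahsp* and *Hbb-bh0* not analysed here), and the 15 highest and 10 lowest called genes. Some genes of this rule are not reported here. Genes named beyond this rule are said to have been chosen after their values were seen. The cells, the lists and their genes were chosen with earlier results of these data known. Alternatives changed the hemoglobin share, the filters, doublets, the added level, the minimum of UMIs, the pooling of libraries and the comparison cells, and left out each library in turn. The calling step was tested on simulated data, with no outcome reported here. Promoters come from RefSeq, all 5 genes matched, and positions from GENCODE M21. Scripts ran on Python 3.11.15 with scikit-learn 1.9.0, scipy 1.17.1, Biopython 1.88, pandas 2.3.3, matplotlib 3.10.9 and numpy 2.4.6.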

Additional observations from a re-analysis of the deposited data

Results flagged for a closer look

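Among the deposited cells that the filters removed, and that no comparison above used, 58 had a hemoglobin share of 50% or more, above the 3 cells that a count of 0 allows, a low bar that any larger number passes. Of these 46 were in library 1 and 12 in library 3. The minimum of genes removed 41 and the limit on mt- UMIs 29, with 12 failing both. They had a median of 187 genes (145 to 555), 1614 UMIs, 20% mt- UMIs (1.25 to 75.8%) and 83.0% hemoglobin. Of their UMIs outside hemoglobin, the red cell lists took 6.05% and the lists of other cell types 3.50%. *Alas2* stood at 13169 CPM, with a UMI in 33 of the 58 cells.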

How the results depend on the processing

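No paired analysis was possible because the libraries are not matched to the numbered grafts, so that allogeneic and syngeneic grafts were not compared. The hemoglobin-rich cells were set against the other cells of their own library, except where libraries were pooled. The share of hemoglobin-rich cells (0.968%) was 1.17%, 0.804% and 0.455% with a hemoglobin share of at least 30%, 70% and 90%, 0.188% with over 500 genes, 1.16% under 10% mt- UMIs and 0.837% with no limit on them, and 0.516% to 1.14% on leaving out each library, lowest without library 1. The mean log2 ratio of the red cell lists (3.76, SD over 3 libraries 0.37) was 2.78, 4.35 and 5.33 at 30%, 70% and 90%, 2.82 with over 500 genes, and 3.59 to 3.96 on leaving out libraries 1, 2 or 4. The lists of other cell types (−0.28, SD 0.37) had −1.25 at 90%, and −0.40 to −0.07 on leaving out libraries 1, 2 or 4. These and the other filters were added for these lists after seeing the data. Both kinds of list kept their sign throughout. At 70% these values rest on libraries 1 and 2, and at 90% and over 500 genes on library 1 alone.

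The balance of calls turned. With 204 genes lower and 160 higher as reported, more were higher than lower at 70% (182 and 87), at 90% (172 and 101), with over 500 genes (181 and 45), under 10% mt- UMIs (180 and 151), with marked doublets left out (161 and 154), with 50 CPM added (123 and 49), with at least 100 UMIs (106 and 19), with libraries pooled (300 and 242), and without library 1 (93 and 25) or 4 (173 and 148). Calls at 70% and under 10% mt- UMIs rest on libraries 1 and 2, those at 90% and over 500 genes on library 1 alone. These settings thus also changed which libraries were used, and the turn cannot be put down to the setting itself. Genes called higher (160) were 300 with all libraries pooled, 106 with at least 100 UMIs, and 93 to 189 on leaving out 1 library. Genes called lower (204) were 87 at 70%, 101 at 90%, 45 with over 500 genes, 49 with 50 CPM added, 757, 19 and 1168 with at least 5, at least 100 and no minimum of UMIs, and 25 to 253 on leaving out 1 library. On leaving out 1 library both counts were lowest without library 1, where 758 genes were tested. Library 3, with 39 cells, entered neither ratio nor calls. Adding it, an alternative chosen after seeing the data, gave 158 and 222 genes, a ratio of 3.88 for the red cell lists and −0.35 for the other lists. The alpha to beta ratio kept within its SD, at 0.564 to 0.629 on leaving out each library. Hemoglobin took 0.196% of UMIs of the other kept cells and 0.0245% of those under 5% hemoglobin. *Alas2* was detected in 94.7% of cells and in 84.0% thinned to 200 UMIs.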

Other observations

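*Rsad2* and *Isg15*, chosen after their values were seen, were called higher in the hemoglobin-rich cells. *Rsad2*, which encodes the antiviral enzyme viperin, stood at 1658, 392, 1740 and 3904 CPM in libraries 1 to 4, against 225, 37.0, 146 and 201 in the other cells (mean log2 ratio 3.38 ± 0.74), and library 4 was the highest. *Isg15*, a ubiquitin-like protein, stood at 895, 53.4, 348 and 1394 against 262, 30.5, 64.9 and 127 (1.91 ± 1.36), with only 3 UMIs in library 2. *Ifitm3*, an antiviral membrane protein, stood at 2044, 2851, 1933 and 4991 against 2365, 2481, 2132 and 4714 and was not called (0.02 ± 0.21). All 3 are known to respond to interferon, but no list of that response was tested.

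Other genes chosen after their values were seen were called higher. *Ncoa4*, the receptor that sends ferritin for breakdown, had 4.21 ± 0.52 and *Hagh*, a glyoxalase, 4.01 ± 0.39. *Cd24a*, a surface protein of red cells and granulocytes, had 4.62 ± 2.48, and its level in the other cells was highest in library 2 (183 CPM). *Oaz1*, which restrains polyamine synthesis, had 2.43 ± 0.40. *Gm42418*, a gene model that overlaps ribosomal RNA, stood at 31363, 20257, 30933 and 21109 CPM against 6622, 3464, 4308 and 2625 (2.60 ± 0.38). *Malat1*, a transcript that stays in the nucleus, stood at 21571, 15839, 17825 and 8087 against 27188, 15693, 22843 and 13232 and was not called (−0.34 ± 0.36).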
